A study of Mus musculus with 2 samples.

Results

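Killer lectin-like receptors are type II membrane proteins of natural killer (NK) cells and of subsets of T cells. The 10 receptor genes described here, Klrc1, Klrc2, Klrd1, Klrk1, Klrg1, Klrb1c, Klre1, Klra1, Klra9 and Klra8, were chosen by symbol among 54532 gene rows, and each symbol had 1 row. They were compared between 2 RNA sequencing libraries of diabetogenic CD4 T cells, 1 per group. The first group was 2.5HIP-PLG: NOD.scid mice, an immunodeficient strain without its own lymphocytes of the T and B lineages that still has NK and myeloid cells, received activated BDC-2.5 T cells intravenously and 1 day later 1.75 mg of 2.5HIP-PLG, nanoparticles that carry the hybrid insulin peptide seen by the BDC-2.5 receptor. The second group, untreated, consisted of NOD.scid recipients of the same transfer without particles. In both groups CD4-positive BDC-2.5 effector cells without the Foxp3 green fluorescent reporter had been isolated by flow sorting from pooled spleen and lymph node tissue of 4 mice on day 6 after transfer. Both groups thus share the T cell receptor transgene of the transferred cells and the exclusion of reporter-positive cells. The question behind the series was how tolerance is induced in these cells.

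Most of these receptors are encoded side by side in the natural killer gene complex. Inhibitory members carry an immunoreceptor tyrosine-based inhibitory motif in the cytoplasmic tail, which recruits phosphatases, whereas most activating members lack it and signal through adaptor proteins such as DAP10 and DAP12. CD94, the product of Klrd1, pairs with NKG2A (Klrc1, inhibitory) or NKG2C (Klrc2, activating), and these pairs bind the non-classical class I molecule Qa-1. NKG2D (Klrk1) binds stress-induced ligands, Ly49 receptors (Klra genes) bind class I molecules, and KLRG1 binds cadherins and is a usual marker of late effector T cells. T cells gain several of these receptors after activation. NOD mice carry another set of Ly49 genes than the C57BL/6 mouse of the reference genome, so a Klra row here is the reference gene its reads fit best.

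The cytoplasmic starts of 7 family genes are shown because the inhibitory motif of several of these receptors lies there. They are the first 48 coding bases of the GENCODE M21 transcript with the longest coding sequence (GRCm38, C57BL/6 reference, chromosome 6, all on the minus strand). Capitals mark the 6 codons of the inhibitory motif, and in Klra8 the codons at the place where Klra1 has it.
Klra1: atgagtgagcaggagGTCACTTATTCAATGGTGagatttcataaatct
Klra9: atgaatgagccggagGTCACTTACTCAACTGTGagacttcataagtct
Klra8: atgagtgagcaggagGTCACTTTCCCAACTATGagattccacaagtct
Klrc1: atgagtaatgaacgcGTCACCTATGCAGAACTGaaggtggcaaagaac
Klrg1: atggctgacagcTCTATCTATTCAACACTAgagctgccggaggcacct
Klrc2: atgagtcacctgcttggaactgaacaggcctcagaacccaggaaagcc
Klrc3: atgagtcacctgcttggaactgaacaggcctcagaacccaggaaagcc
They lie at chr6:130380615-130380662 (Klra1), chr6:130191254-130191301 (Klra9), chr6:130128113-130128160 (Klra8), chr6:129678863-129678910 (Klrc1), chr6:122282764-122282811 (Klrg1), chr6:129660509-129660556 (Klrc2) and chr6:129643241-129643288 (Klrc3). Klra1 and Klra8 are identical at 39 of the 48 bases, and Klra1 and Klra9 at 41. Klrc2 and Klrc3 are identical at 48 of 48, so reads from this stretch fit both. When the longest coding sequences were translated, the motif was found within the first 60 codons of 5 of the 10 receptors, Klrc1, Klrg1, Klrb1c, Klra1 and Klra9, and in 7.52% of 21600 protein-coding genes. The match starts at codon 5 in Klrg1 and at codon 6 in Klrc1, Klra1 and Klra9, but at codon 53 of the longest annotated reading frame of Klrb1c, whose product is known as an activating receptor. A match describes the sequence only and is no measure of signalling.

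Receptor genes differed between the libraries in both directions. Klrc1, Klrc2, Klra1, Klra9 and Klra8 were higher in the 2.5HIP-PLG library, with ratios between 2.47 and 13.2. Klrg1, Klrd1 and Klrb1c were lower, by 1.63-fold to 2.61-fold. Klrk1 and Klre1 were neither. Each ratio divides the CPM of 2.5HIP-PLG cells (counts per 1000000 of the column total) by that of untreated cells. Its exact 95% interval, given in brackets below, holds counting error and nothing else. Higher or lower means a ratio of at least 1.5 in that direction and an interval that excludes 1. Since each group is 1 library, there are no replicates and no test, and each value describes these 2 libraries. By the same rule 5.15% of 13902 genes with a count sum of at least 20 were higher and 9.7% were lower, against 5 and 3 of the 10 receptors, all of which had that count sum. At a limit of 2-fold the shares were 2.78% and 5.81%, against 5 and 2 receptors. The median log2 ratio of the 10 was 0.76, against -0.01 over all measured genes.

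**Figure D1:**
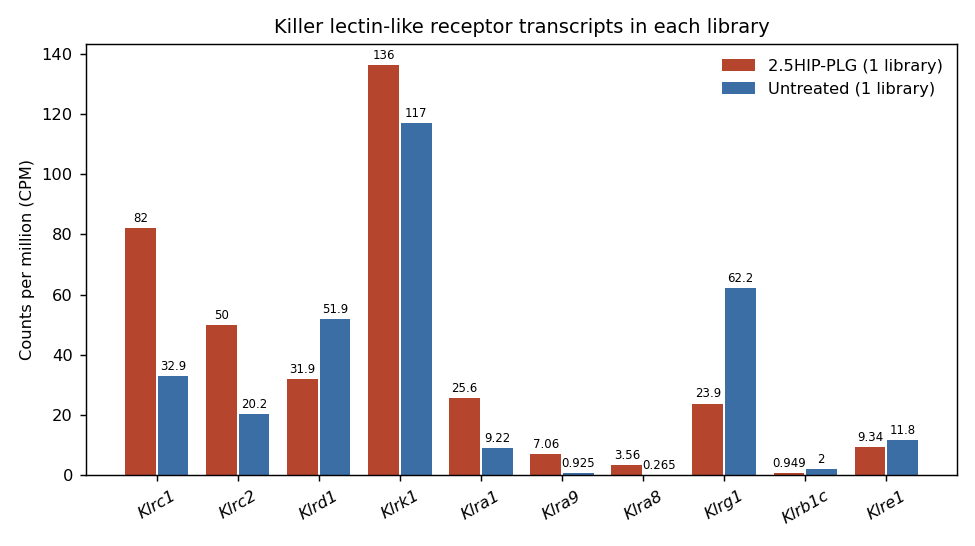
Level of each of the 10 receptor genes in CPM (vertical axis, from 0) in the 2.5HIP-PLG library and the untreated library, 1 bar per library, with the value printed above it. Values are not corrected for gene length, and by them Klrk1 has the tallest bar in both libraries. The Klrc and Klra bars are taller after 2.5HIP-PLG, and those of Klrd1, Klrg1 and Klrb1c are taller in untreated cells.

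The 2 libraries summed to 22580671 counts (2.5HIP-PLG) and 26036666 counts (untreated), so 1 count was worth 0.0443 and 0.0384 CPM in that order of groups. The CD4 identity of the cells held in both, with Cd4 at 1849 and 1526 CPM and Cd3e at 1043 and 772 CPM. Of all measured genes 5.15% were higher and 9.7% lower, and none of 11 CD4 T cell identity genes was called. The largest ratios among them were those of Cd28 (1.45), Cd3e (1.35) and Trbc1 (1.33), and Trbc2 had 1512 and 1246 CPM. The libraries differed in make-up in other ways. A ribosomal RNA gene took 0.202% of counts after 2.5HIP-PLG and 1.06% in untreated cells. Beta chain segments that are not Trbv2, the segment of the transgene, held 1.37% and 4.14% of Trbv counts in the same order. Their part in the receptor differences was not tested.

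The CD94 partners parted from CD94 itself. Klrc1 (NKG2A; chr6:129666015-129678973) had 1851 counts or 82.0 CPM in 2.5HIP-PLG cells, against 857 counts or 32.9 CPM in untreated cells, a ratio of 2.49 (2.30 to 2.70). Klrc2 (NKG2C; chr6:129647496-129660689) had 1129.53 counts or 50.02 CPM after 2.5HIP-PLG, against 526.77 counts or 20.2 CPM without, a ratio of 2.47 (2.23 to 2.75). By counts, without correction for length, the inhibitory and the activating partner thus stood in nearly the same proportion in both libraries. Klrc1 made up 62.1% of the summed Klrc1 and Klrc2 counts in 2.5HIP-PLG cells (exact binomial interval 60.3 to 63.8). In untreated cells it made up 61.9% (59.3 to 64.5). Reads that fit both genes were divided between them by estimation, and these intervals leave that uncertainty out.

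Klrd1 (CD94; chr6:129591782-129598775), the chain that both need for surface display as heterodimers, had 721 counts or 31.9 CPM in 2.5HIP-PLG cells and 1351 counts or 51.9 CPM in untreated cells. It was 1.63-fold lower (1.48 to 1.78), an interval that reaches the 1.5-fold limit of the rule. For each Klrd1 count there were 4.13 counts of Klrc1 and Klrc2 together after 2.5HIP-PLG and 1.02 without treatment. That proportion is free of the scaling between libraries. It differed 4.04-fold, because the 2 sides moved in opposite directions. The third gene of the subfamily, Klrc3, stayed scarce, with 30.47 counts after 2.5HIP-PLG and 34.09 without (ratio 1.02, 0.601 to 1.71).

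NKG2D was the most counted receptor and differed little. Klrk1 (chr6:129610323-129623864) had 3080 counts or 136 CPM in 2.5HIP-PLG cells and 3047 counts or 117 CPM in untreated cells. Its ratio of 1.17 (1.11 to 1.23) had an interval that excluded 1 but lay under the size that counts as a difference here. Klrk1 took 36.8% of the counts of the 10 receptors after 2.5HIP-PLG (35.8 to 37.8) and 37.9% without (36.9 to 39.0). Hcst, which encodes the DAP10 adaptor of NKG2D, moved the other way, with 34.5 CPM in 2.5HIP-PLG cells and 51.6 CPM in untreated cells (1.497-fold lower, 1.37 to 1.64), just short of the rule.

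The Ly49 genes had the largest ratios in the family. Klra1 (Ly49A, an inhibitory receptor; chr6:130363917-130386874) had 578.92 counts or 25.6 CPM in 2.5HIP-PLG cells and 240 counts or 9.22 CPM in untreated cells, a ratio of 2.78 (2.39 to 3.25). Klra9 (Ly49I, inhibitory; chr6:130178675-130193112) had 159.39 counts or 7.06 CPM after 2.5HIP-PLG and 24.09 counts or 0.925 CPM without (7.64, 4.95 to 12.3). Klra8 (Ly49H, an activating receptor known for recognising mouse cytomegalovirus; chr6:130115226-130129898) had 80.47 counts or 3.56 CPM and, in untreated cells, 6.91 counts or 0.265 CPM (13.2, 6.11 to 33.8). The widest interval belongs to the gene with the fewest untreated counts.

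Of 14 Klra rows in the table, 7 had a count sum of at least 20. Among all measured genes 5.15% were higher, and of these 7 rows 6 were. Beside the 3 described, they were Klra10 with 87.78 counts after 2.5HIP-PLG and 16 without (6.34, 3.70 to 11.6), Klra7, which encodes inhibitory Ly49G, with 48.85 and 6 (9.42, 4.03 to 26.9), and Klra4, which encodes activating Ly49D, with 52.33 and 26 (2.31, 1.41 to 3.85). Klra5 (Ly49E) had 25 and 19 counts, and its interval of 0.802 to 2.91 included 1. The 7 other rows were under the count minimum, among them Klra17 with 0 counts after 2.5HIP-PLG and 2 without. All 14 rows together had 1054.26 counts in 2.5HIP-PLG cells and 343 in untreated cells, a ratio of 3.54 (3.13 to 4.01), and the 11 rows outside the 10 receptors had a ratio of 3.76 (2.88 to 4.97). The higher rows bear the names of both inhibitory and activating Ly49 genes of the C57BL/6 reference. Which NOD genes gave the reads, and of which kind, was not determined. Several of these rows share stretches of sequence, so the higher rows are not all separate observations. For Klra10, 39.8% of the distinct 50-base stretches also occur in another gene. Within the subfamily Klra1 held 55.0% of counts after 2.5HIP-PLG (51.9 to 58.0) and 70.0% without (64.8 to 74.8).

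**Figure D2:**
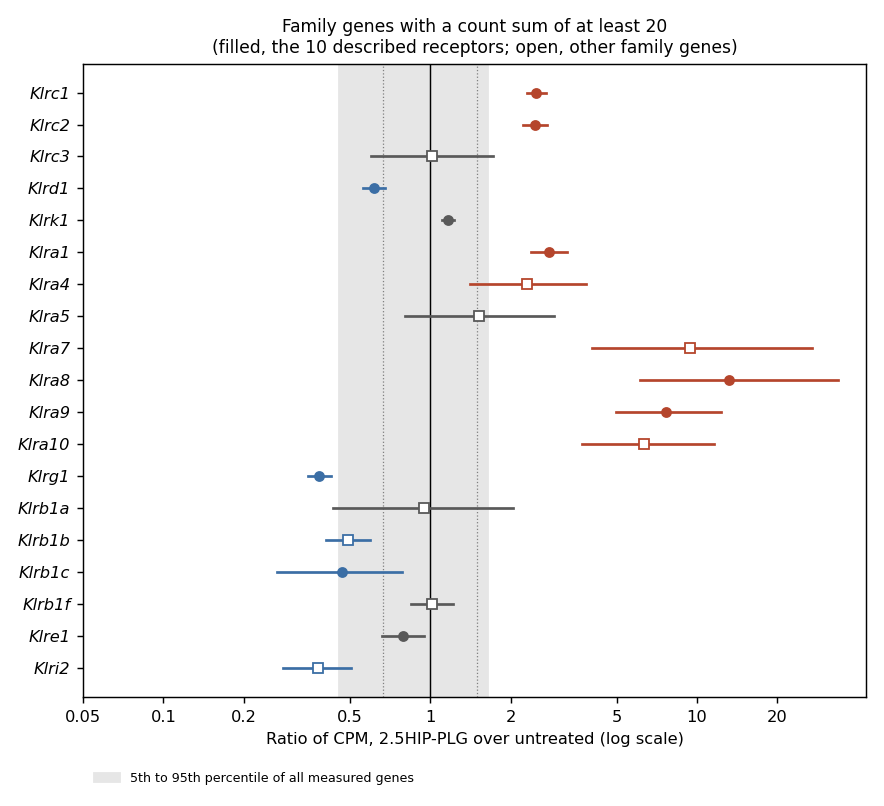
Ratio of CPM, 2.5HIP-PLG over untreated, on a log axis for the 19 measured family genes (summed counts of 20 or more), with exact 95% intervals of counting error (red higher, blue lower, grey neither). Dotted lines mark the 1.5-fold limits and the grey band the 5th to 95th percentile of 13902 genes, a log2 ratio of -1.14 to 0.72. The Klra genes and Klrc1 and Klrc2 lie right of the band or across its edge. The points of Klrg1 and Klri2 lie left of the band. Those of Klrd1, Klrb1b and Klrb1c lie inside the band, in its left part.

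KLRG1 was the most clearly lower receptor. Klrg1 (chr6:122270596-122282882), which lies apart from the Klrc and Klra genes on chromosome 6, had 539 counts or 23.9 CPM in 2.5HIP-PLG cells, against 1619 counts or 62.2 CPM in untreated cells. It was 2.61-fold lower (2.36 to 2.88), and its share of the counts of the 10 receptors was 6.44% (5.92 to 6.99) after 2.5HIP-PLG and 20.2% (19.3 to 21.1) without. Its known ligands are cadherins. Cdh1, which encodes E-cadherin, was lower too, with 27 counts in 2.5HIP-PLG cells and 392 in untreated cells (12.6-fold, 8.52 to 19.4), and Cdh2, which encodes N-cadherin, had 4 and 21 counts (4.55-fold lower, 1.54 to 18.2). Cdh4 was at 0 in both, which allows up to 0.133 CPM in the 2.5HIP-PLG library and 0.115 CPM in the untreated library.

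Of the 4 measured NKR-P1 genes, Klrb1c and Klrb1b were lower, and Klrb1a and Klrb1f were neither. The shares over all measured genes were 9.7% lower and 5.15% higher. Klrb1c, which encodes the activating NK cell receptor NKR-P1C (chr6:128778485-128789215), had 21.42 counts or 0.949 CPM after 2.5HIP-PLG and 52 counts or 1.997 CPM without (2.15-fold lower, 1.27 to 3.75). Klrb1b, whose inhibitory product binds Clr-b, had 160.43 and 375.38 counts (2.03-fold lower, 1.68 to 2.46). Klrb1f had 226 and 256 counts and Klrb1a 14 and 17. Klrb1c is overlapped on the same strand by Gm44511, which also had fewer counts, 57.15 after 2.5HIP-PLG and 138.62 without. In the reference transcripts, 25.5% of the distinct 50-base stretches of Klrb1b and 12.4% of those of Klrb1c also occur in Gm44511. The 2 lower genes are therefore not separate observations. Klrb1b, Klrb1c and Gm44511 together were 2.05-fold lower (1.76 to 2.40).

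Klre1 (chr6:129577905-129585827), whose product pairs with that of Klri1 or Klri2, had 211 counts or 9.34 CPM in 2.5HIP-PLG cells and 308 counts or 11.8 CPM in untreated cells. Its ratio of 0.790 (0.660 to 0.944) excluded 1 but fell short of the size rule. Its activating partner gene Klri2 had 65 and 198.28 counts (2.64-fold lower, 1.99 to 3.55). The inhibitory partner gene Klri1 had only 2 and 6.72.

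The summed counts of the 10 receptors were close in the 2 libraries, at 371 CPM after 2.5HIP-PLG and 309 CPM without (ratio 1.20, 1.17 to 1.24), while their make-up differed. Klrc1 and Klrc2 took 35.6% of them in 2.5HIP-PLG cells and 17.2% in untreated cells. The 3 Ly49 genes took 9.77% (9.14 to 10.4) and 3.37% (2.99 to 3.79) in the same order. Klrd1 took 8.61% after 2.5HIP-PLG and 16.8% without.

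**Figure D3:**
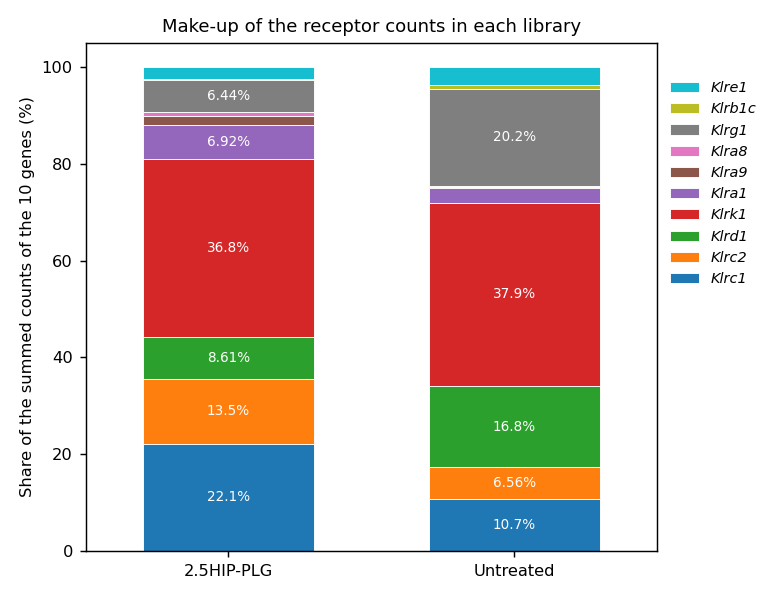
Share of each receptor gene in the summed counts of the 10 genes (stacked to 100%, vertical axis in percent) in the 2.5HIP-PLG library and the untreated library, 1 bar each. Klrk1 takes a similar part of both bars (36.8% and 37.9%), Klrc1 and Klrc2 are wider after 2.5HIP-PLG, and Klrg1 and Klrd1 are wider in untreated cells.

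Presence of the inhibitory motif in the reference sequences did not sort the receptor rows by direction. Of the 5 with the motif, Klrc1, Klra1 and Klra9 were higher, and Klrg1 and Klrb1c were lower, with Klrb1c the activating receptor whose match begins at codon 53. Of the 5 without it, Klrc2 and Klra8 were higher, Klrd1 was lower, and Klrk1 and Klre1 were neither. For the Klra rows the motif status is that of the reference gene. The tails of the NOD genes behind those reads were not determined. Outside the Klra rows the motif did not sort direction either. With it Klrc1 was higher and Klrg1 lower, and without it Klrc2 was higher and Klrd1 lower.

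Levels between genes can be compared only per length, and the order depended on the length used. Per kilobase of merged exons, the highest level in 2.5HIP-PLG cells was that of Klrc1 (41.3 CPM per kb), followed by Klrd1 (24.9), Klrk1 (19.0), Klrg1 (16.9) and Klra1 (14.5). In untreated cells Klrg1 (44.0 CPM per kb) and Klrd1 (40.5) stood above Klrc1 (16.6) and Klrk1 (16.3). Among 11805 measured protein-coding genes, Klrg1 was at percentile 75.2 after 2.5HIP-PLG and 91.3 without, Klrc1 at 90.4 and 75.2, and Klra8 at 33.5 and 6.0. Klrk1 and Klrc2 have long merged exons (7183 and 5812 bases). Per kilobase of the transcript with the longest coding sequence, Klrk1 came first in both libraries, at 107 CPM per kb after 2.5HIP-PLG and 92.1 without, and Klrc2 had 43.5 and 17.6.

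The estimated counts bear directly on the higher genes. RSEM divides a read that fits several genes among them, which leaves counts that are not whole. Of the 10 receptors, 6 had a count more than 0.005 from a whole number in at least 1 library, as had 36.7% of measured genes. All 5 higher receptors were among these 6. Of the 3 lower ones, Klrg1 and Klrd1 had whole counts in both libraries, and Klrb1c did not. In the reference transcripts, 33.1% of the distinct 50-base stretches of Klra8 and 31.5% of those of Klra9 also occur in another gene, mostly another Klra gene or pseudogene. The share was 38.6% for Klrc1, 16.3% for Klrc2, 17.0% for Klrb1c and 2.98% for Klra1, and 0.308% for Klre1. Klrk1, Klrd1 and Klrg1 shared none. The read length is not given in the sources used here, and at 100 bases the shares were 14.4% for Klra8, 4.07% for Klra9, 14.6% for Klrc1, 7.09% for Klrc2, 10.8% for Klrb1c and 0.0% for Klra1. Single values of Klra8, Klra9, Klrc1, Klrc2 and Klrb1c are therefore uncertain. Stretches shared in the C57BL/6 reference cannot show where reads of other NOD Ly49 genes were placed. Every Klra row, Klra1 included, is uncertain for that reason too. Sums over a subfamily do not change when reads are moved within it: Klrc1, Klrc2 and Klrc3 together had a ratio of 2.45 (2.30 to 2.61), and the sum of all Klra rows is given above.

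Adaptors and phosphatases of the receptors mostly did not meet the rule, like measured genes in general (5.15% higher and 9.7% lower). Of 12 adaptor and proximal signalling genes, Sh2d1a, which encodes the SAP adaptor, was higher (1.52, 1.41 to 1.64), Plcg2 was lower (12.4 CPM after 2.5HIP-PLG and 24.9 CPM without, interval of the ratio 0.433 to 0.576), and 10 were neither. Tyrobp, which encodes the DAP12 used by NKG2C and activating Ly49 receptors, was scarce, with 45 counts in 2.5HIP-PLG cells and 75 in untreated cells (0.692, 0.467 to 1.01). The most counted were Cd247, the zeta chain of the T cell receptor complex (1.24, 1.21 to 1.28), and Plcg1 (0.751, 0.730 to 0.774). Of 3 phosphatases recruited by inhibitory tails, Ptpn11, which encodes SHP-2, was higher at 391 CPM after 2.5HIP-PLG and 173 CPM without (2.26, 2.18 to 2.34). Ptpn6, which encodes SHP-1, had 461 and 314 CPM (1.47, 1.43 to 1.51), just short of the rule, and Inpp5d, which encodes SHIP-1, had a ratio of 0.947.

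None of 6 measured ligand genes of the CD94, NKG2D and Ly49 receptors was called in the same cells. They include B2m, which encodes the light chain of class I molecules. Among all measured genes 5.15% were higher and 9.7% lower. H2-T23, which encodes Qa-1, had 69.5 CPM in 2.5HIP-PLG cells and 63.5 CPM in untreated cells (1.09, 1.02 to 1.17). Ulbp1, which encodes the NKG2D ligand MULT1, had 20.2 and 28.7 CPM (0.703, 0.624 to 0.791), and H60b had 25 and 42 counts (0.686, 0.401 to 1.15). Raet1d had 3 counts after 2.5HIP-PLG and 0 without, and H60c and Raet1e had 0 in both. The class I genes H2-K1 (0.978, 0.957 to 1.00) and H2-D1 (0.967, 0.957 to 0.977) and B2m (1.03, 1.02 to 1.04) were near 1.

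Of 5 other measured lectin genes 0 were called, where 5.15% of all measured genes were higher and 9.7% lower. Clec2l (chr6:38663069-38680864) lies outside the natural killer gene complex. Cd69, an early activation antigen, had 117 CPM after 2.5HIP-PLG and 155 CPM without (0.758, 0.721 to 0.796). Clec2d, which encodes the Clr-b ligand of NKR-P1B, had 132 and 136 CPM (0.970, 0.924 to 1.02), and Clec2i, which encodes a ligand of NKR-P1F, had 38.7 and 26.8 CPM (1.44, 1.304 to 1.60). Clec2g (8 and 13 counts) and Clec2l (22 and 38 counts) were scarce.

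**Figure D4:**
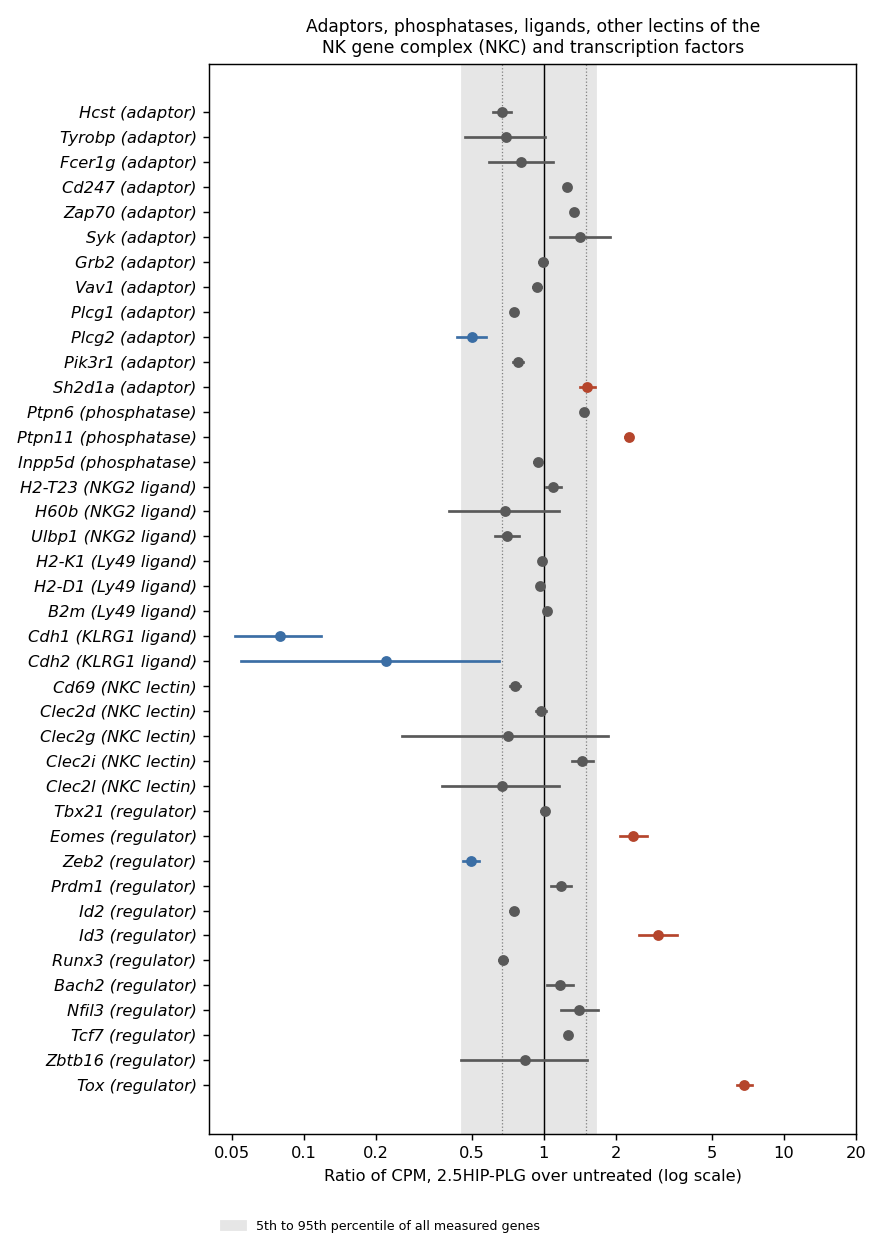
Ratio of CPM, 2.5HIP-PLG over untreated, on a log axis for every measured gene of the lists of adaptors, phosphatases, ligands, other lectins and transcription factors. The lectins are labelled NKC, for the NK gene complex, although Clec2l lies outside it. Lines are exact 95% intervals of counting error (red higher, blue lower, grey neither). The grey band marks the 5th to 95th percentile of all measured genes, and dotted lines mark 1.5-fold. Cdh1 lies furthest to the left at 0.0794 and Tox furthest to the right at 6.83.

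Transcription factors of NK receptor and late effector genes split: of 12, 3 were higher, 1 was lower and 8 met neither limit, and the median log2 ratio was 0.23. The shares over all measured genes were 5.15% higher and 9.7% lower. Eomes, a T-box factor of NK and memory cells, had 735 counts in 2.5HIP-PLG cells and 360 in untreated cells (2.35, 2.07 to 2.68). Id3 (2.97, 2.49 to 3.57) and Tox (6.83, 6.37 to 7.34) were also higher. Zeb2, a factor of terminally differentiated effector T cells, was lower at 43.2 CPM after 2.5HIP-PLG and 86.7 CPM without (2.01-fold, 1.86 to 2.17). Tbx21, which encodes T-bet, had 305 and 303 CPM (1.01, 0.974 to 1.04). The most counted, Tcf7 (1.26, 1.24 to 1.29) and Id2 (0.748, 0.725 to 0.770), were neither.

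Other cell types that carry these receptors were looked for with their markers. Cd8a had 0 counts after 2.5HIP-PLG and 9 without, and Cd8b1 had 304 and 272 (1.29, 1.09 to 1.52). Ncr1, which marks NK cells and some innate lymphoid cells, had 54 counts or 2.39 CPM in 2.5HIP-PLG cells and 96 counts or 3.69 CPM in untreated cells (1.54-fold lower, 1.09 to 2.19). By the same rule 9.7% of all measured genes were lower and 5.15% higher. Of 12 measured NK and innate lymphoid marker genes, 6 were lower, 2 were higher and 4 met neither limit. Their median log2 ratio was -0.56, and 10 had a ratio below 1. Khdc1a and Styk1 were at 0 in both libraries. The list summed to 561 CPM after 2.5HIP-PLG and 1196 CPM without, most of it from Il18rap (339 and 486 CPM) and Gzma (112 and 613 CPM), which T cells also express. Gzmm was 3.99-fold lower (2.91 to 5.58), and Cma1 had 3 and 35 counts. The 2 higher markers were Cd160, with 893 counts in 2.5HIP-PLG cells and 421 in untreated cells (2.45, 2.18 to 2.75), and Prf1, which encodes perforin, with 831 and 638 counts (1.502, 1.35 to 1.67). T cells can express both. The part of such cells in any of these differences was not tested, and fewer cells of a type and less RNA per cell cannot be told apart in sorted bulk samples. No B cell marker of 5 was measured. Of 6 myeloid markers, Lyz2 (101.18 and 47 counts) and Csf1r were higher and Itgax was lower, with sums of 26.8 CPM after 2.5HIP-PLG and 32.6 CPM without, and Itgam had 219 and 325 counts.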

How the data were processed

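RNA sequencing was carried out on 2 pooled samples, 1 per group, grouped by the treatment label. The submitters' processing notes name STAR, RSEM 1.3.1 and GRCm38. The annotation, filters, strand use and read length were not given in the sources used here. Deposited by the authors is 1 table of expected counts per gene, estimated by RSEM and at times fractional, without scaling between libraries.

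Counts were rounded to whole numbers for intervals and scaled by the unrounded column total. A gene was measured when its 2 rounded counts gave a sum of at least 20. Ratios have exact (Clopper-Pearson, conditional binomial) 95% intervals, and shares exact binomial ones, from scipy 1.17.1 in Python 3.11.15 with numpy 2.4.6 and pandas 2.3.3. A count of 0 allows 3 counts. No molecular identifiers are described, so intervals and floors hold counting error alone. List medians use log2 ratios with 0.5 counts added. Alternatives used edgeR 4.0.16 and DESeq2 1.42.0 in R 4.3.3. The calculation was run on simulated counts with counting error alone. Such counts cannot show how it performs with variation between mice or with reads shared between genes. Positions, lengths and transcript sequences came from GENCODE M21. Figures were drawn with matplotlib 3.10.9.

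The members and lists were chosen with earlier results of these data known. Named were the 10 receptors, every other family gene with a count sum of at least 20, in other lists the 3 genes with the largest absolute log2 ratio and the 2 most counted, and Hcst, Tyrobp, H2-T23, Cdh1, Tbx21, Eomes, Ncr1, Cd8a, Cd4 and Cd3e. Zeb2, Cd160, Prf1, Klra17, Gm44511, Klri1, Cdh4, Raet1d, H60c, Raet1e, Khdc1a and Styk1 were named after their values were seen. Klrh1, H60a, Raet1a, Raet1b and Raet1c were listed but matched no row and were not analysed here, and Cd244 was analysed under its row symbol, Cd244a.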

Additional observations from a re-analysis of the deposited data

How the results depend on the processing

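Each of the 10 receptors kept its direction and its call with TMM, DESeq2 size factors, upper quartile scaling, unrounded counts and a 99% interval, and these scalings shifted every log2 ratio by -0.02 to 0.01. The higher receptors numbered 5 under these settings and at a ratio of 2, and 4 when 100 counts were required, which leaves out Klra8. The lower ones numbered 3, or 2 at a ratio of 2 (without Klrd1) and 2 at a count sum of at least 100 (without Klrb1c). Over all measured genes, the scalings, unrounded counts and 99% interval gave 4.37% to 5.34% higher and 7.89% to 10.1% lower. At a ratio of 2 these shares were 2.78% and 5.81%. At a count sum of at least 100 they were 4.26% and 6.74% of 11095 genes. Summing the Ly49 genes moved their values most, to 3.48 for Klra1, Klra8 and Klra9 together and 3.54 for all Klra rows, against 2.78, 13.2 and 7.64 for the 3 taken singly. The length of the coding transcript in place of merged exons, added after seeing the data, changed the order of levels. No paired analysis was possible because each group has 1 library, and no replicate could be left out. Depth limits Klra8, Klrb1c and Klra9 most, with 7, 21 and 24 counts in their lower library.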
